A study of Mus musculus with 8 samples.

Results

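The 10 tubulin genes described here were 6 α-tubulin genes (*Tuba1a*, *Tuba1b*, *Tuba1c*, *Tuba3a*, *Tuba3b* and *Tuba4a*) and 4 β-tubulin genes (*Tubb2a*, *Tubb2b*, *Tubb4b* and *Tubb5*), out of 50903 genes in the deposited expression values. They were selected by symbol, with their RPKM values in both lines and the difference between the lines already known, so those values are given as a description and carry no test. RNA was sequenced from E14 mouse embryonic stem cells (ESCs) kept in N2B27 medium with LIF/2i, with 4 libraries from ESC + F/H-BAZ2Ar_WT_ (the WT line) and another 4 from ESC + F/H-BAZ2Ar_ΔTAM_ (the ΔTAM line). BAZ2A is a chromatin protein with an RNA-binding TAM domain, and the comparison asks how expression differs when the only BAZ2A supplied by the transgene lacks that domain. In both lines a Flag- and HA-tagged, siRNA-resistant BAZ2A transgene was inserted with the piggyBac transposase, endogenous *Baz2a* was targeted by siRNA, and cells were collected 3 days after transfection. The lines were derived as single-cell clones, so the transgene and the clone cannot be told apart. Nothing states that the libraries of a line came from separate derivations, so every spread and p-value below is that between libraries of 1 line.

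Microtubules are hollow polymers of α/β-tubulin heterodimers that build the mitotic spindle, the cilium and the tracks for intracellular transport. Several genes encode near-identical α- and β-tubulins (isotypes), which differ mostly in the acidic C-terminal tail, the part that projects from the microtubule surface and is chemically modified. Cells also sense the amount of unpolymerised tubulin. When it is high, TTC5 recognises the first residues of a tubulin chain as it leaves the ribosome, and the mRNA is degraded through SCAPER and the CCR4-NOT deadenylase.

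The start of the coding sequence, which encodes this autoregulation signal, is shown for 1 gene of each version of it, with the first 4 codons in capitals. The sequences are from GENCODE vM21 (mm10).
Tuba1b: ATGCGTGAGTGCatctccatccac
Tuba3a: ATGCGTGAGTGTatctctatccac
Tuba4a: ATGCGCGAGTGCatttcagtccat
Tubb2a: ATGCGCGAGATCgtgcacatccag
Tubb2b: ATGCGAGAGATCgtgcacattcag
Tubb4b: ATGAGGGAGATCgtgcacctgcag
Tubb5: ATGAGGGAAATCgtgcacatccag
All 6 α-tubulin genes encode MREC here and all 4 β-tubulin genes encode MREI, so the genes that were higher, lower and level between the lines share the signal of their class.

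The last 24 bases before the stop codon encode the end of the C-terminal tail and are shown for several of the genes because they set the isotypes apart. The last sense codon is in capitals.
Tuba1c: ggagacgatgagggtgaggaaTAT
Tuba3a: gaggcagaagaaggggaggagTAC
Tuba3b: gaggcagaagaaggggaggagTAC
Tuba4a: gaggacgaggatgagggagaaGAG
Tubb4b: gaggaggctgaggaggaggtgGCT
Tubb5: ggagaggaggcagaagaggagGCC
The α-tubulin genes end in a tyrosine codon, the residue removed and restored in the detyrosination cycle, except *Tuba4a*, which ends in a glutamate codon. The β-tubulin genes end in an alanine codon. *Tuba3a* and *Tuba3b* encode the same protein, with 0 amino acid differences over 450 codons although 41 coding bases differ.

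The libraries held 7.26 M to 7.69 M reads on genes in the WT line and 6.56 M to 8.66 M in the ΔTAM line. RPKM values were per kilobase of the whole genomic span, so they compare a gene between libraries but not 1 gene with another. *Baz2a* ran from 9.95 to 11.2 RPKM in the WT line and from 17.0 to 18.9 RPKM in the ΔTAM line, a ratio of 1.74. These reads can come from the transgene as well as the endogenous gene. The 2 lines therefore differed in *Baz2a* RNA as well as in the TAM domain, and the part of this RNA difference in the tubulin values was not tested. For the protein, the paper reports similar BAZ2A levels in these lines, shown by western blot.

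In the ΔTAM line, *Tuba3a* and *Tuba3b* stood at more than 2 times their level in the WT line, *Tuba4a*, *Tuba1c* and *Tubb4b* were about 33% to 38% higher, and *Tuba1a* was about 28% lower. *Tuba1b*, *Tubb2a*, *Tubb2b* and *Tubb5* overlapped between the lines. Of the 10 genes, 5 had every ΔTAM library above every WT library and 1 had every library below. Over the 9001 genes tested the same was true of 20.5% and 16.7%. The fit over all genes called 5 of the 10 higher, beside 19.9% of all genes, and 1 lower, beside 16.0% of all genes. A gene was called at an adjusted p under 0.05 from limma. The genes were chosen on this difference, so nothing is read from these shares. Their median log2 fold change was 0.24, beside 0.011 for all genes tested.

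**Figure D1:**
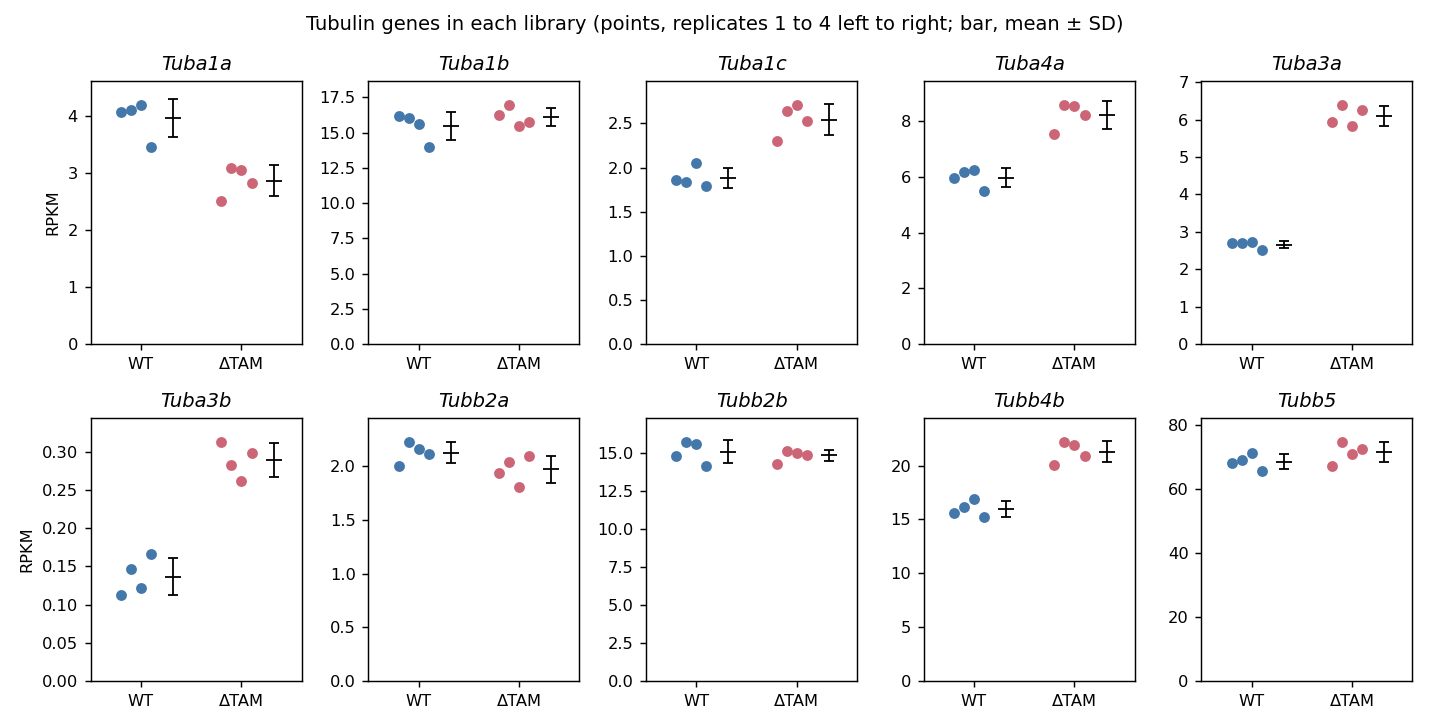
RPKM (y axis, from 0, on its own scale for each gene) of the 10 tubulin genes in the 4 WT libraries (blue, WT) and the 4 ΔTAM libraries (red, ΔTAM), with mean ± SD in black. *Tuba1c*, *Tuba4a*, *Tuba3a*, *Tuba3b* and *Tubb4b* lie wholly higher in ΔTAM, *Tuba1a* lies wholly lower, and the other 4 genes overlap.

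*Tuba3a* (ENSMUSG00000067702.5) encodes an α-tubulin best known from the testis and lies on the minus strand of chromosome 6 of mm10, from 125278274 to 125286042. Its 4 WT libraries had 2.69, 2.70, 2.73 and 2.53 RPKM. The 4 ΔTAM libraries had 5.94, 6.39, 5.83 and 6.24 RPKM. The groups were far apart and each was narrow, with a coefficient of variation of 3.45% and 4.26%. The means were 2.66 ± 0.0918 and 6.10 ± 0.260 RPKM (SD, n = 4), a ratio of 2.29, and the log2 fold change of RPKM + 0.1 was 1.17 (standard error 0.039). Of the 9001 genes tested, 74 had a larger positive fold change. These values rested on 1013 to 1079 reads in a WT library and 2086 to 2817 reads in a ΔTAM library.

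*Tuba3b* (ENSMUSG00000067338.6) lies on the plus strand of the same chromosome, from 145615757 to 145621479, and encodes the identical protein. It was expressed at a far lower level, with 0.112, 0.146, 0.122 and 0.166 RPKM in the WT line (32 to 49 reads). In the ΔTAM line it had 0.313, 0.283, 0.262 and 0.298 RPKM (71 to 99 reads). All 4 of the latter were higher than all 4 of the former. The ratio of the means was 2.12. The log2 fold change of RPKM + 0.1 was 0.72 (standard error 0.078), a value held down by the pseudocount at this low level, and it was 1.08 (standard error 0.15) in recovered reads.

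*Tuba3b* had 3.08%, 3.99%, 3.29% and 4.84% as many reads as *Tuba3a* in the WT libraries. In the ΔTAM libraries the percentages were 3.88%, 3.26%, 3.31% and 3.51%. These ranges overlap. In the reference transcripts, 12.3% of the 100-base windows of *Tuba3a* also occur in *Tuba3b*. How reads that match both were assigned is not stated, so the *Tuba3b* values may hold reads of *Tuba3a*, which was not tested.

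The promoters of *Tuba3a* and *Tuba3b* are shown because these genes had the largest fold changes among the 10. They are from RefSeq (GRCm38.p6), run from 250 bases before to 50 bases after the start, and are printed on the strand of the gene. *Tuba3a* is chr6:125286032-125286331 (minus strand) and *Tuba3b* is chr6:145615713-145616012 (plus strand). Capitals mark CCAAT on either strand, the motif of the NF-Y factor.
Tuba3a: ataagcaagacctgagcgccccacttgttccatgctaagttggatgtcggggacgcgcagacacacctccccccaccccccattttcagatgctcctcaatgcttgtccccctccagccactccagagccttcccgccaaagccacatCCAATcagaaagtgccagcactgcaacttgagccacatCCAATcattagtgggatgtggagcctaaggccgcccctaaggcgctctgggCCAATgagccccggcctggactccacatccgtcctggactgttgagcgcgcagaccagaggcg
Tuba3b: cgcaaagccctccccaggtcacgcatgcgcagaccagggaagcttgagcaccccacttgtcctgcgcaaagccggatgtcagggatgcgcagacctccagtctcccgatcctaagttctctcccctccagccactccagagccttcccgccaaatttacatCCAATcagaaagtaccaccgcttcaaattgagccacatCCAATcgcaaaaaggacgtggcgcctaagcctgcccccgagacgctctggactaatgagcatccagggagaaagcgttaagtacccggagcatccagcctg
The *Tuba3a* promoter holds 3 copies of CCAAT and that of *Tuba3b* holds 2. After global alignment the promoters were 66% identical, and their longest shared run was 33 bases. Of the 9 tubulin genes with a promoter sequence, 6 held CCAAT on either strand (*Tuba1a*, *Tuba1c*, *Tuba3a*, *Tuba3b*, *Tubb4b* and *Tubb5*), as did 37.9% of 27025 mouse promoters of the same length. GGGCGG, the GC box, was present in 7 of the 9 and in 35.9% of all promoters. The holders of CCAAT include *Tuba1a*, which was lower in the ΔTAM line, and *Tubb5*, which overlapped.

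*Tuba4a* (ENSMUSG00000026202.13), the α-tubulin gene without a terminal tyrosine codon, lies on the minus strand of chromosome 1 from 75214228 to 75219865. It had 5.95, 6.19, 6.23 and 5.49 RPKM in the WT line. In the ΔTAM line it had 7.53, 8.58, 8.56 and 8.22 RPKM, all above the WT libraries. The ratio of the means was 1.38, and the log2 fold change was 0.46 (standard error 0.056). Its transcript overlaps that of the kinase gene *Stk16* on the opposite strand over 46.7% of its windows. The use of strand in the counting is not stated. *Stk16* itself had a mean of 1.02 RPKM in the WT line and 1.06 RPKM in the ΔTAM line (limma adjusted p = 0.276).

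The other 3 α-tubulin genes lie within 107 kb on chromosome 15 and did not differ in the same direction. *Tuba1a* (ENSMUSG00000072235.6), the α-tubulin of developing neurons, had 4.08, 4.11, 4.19 and 3.46 RPKM in the WT line. It had 2.50, 3.09, 3.05 and 2.83 RPKM in the ΔTAM line. Every ΔTAM library was lower, although replicate 4 of the WT line lay closer to them than the rest of its line. The ratio was 0.725 and the log2 fold change was -0.45 (standard error 0.083).

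*Tuba1c* (ENSMUSG00000043091.9) went the opposite way from *Tuba1a*. It had 1.86, 1.84, 2.05 and 1.79 RPKM in the WT line and 2.30, 2.64, 2.71 and 2.52 RPKM in the ΔTAM line. The groups did not overlap, and the log2 fold change was 0.41 (standard error 0.059). *Tuba1b* (ENSMUSG00000023004.8), a widely expressed α-tubulin gene, had 16.2, 16.0, 15.6 and 14.0 RPKM against 16.3, 17.0, 15.5 and 15.8 RPKM. These ranges overlap, and the log2 fold change was 0.061 (standard error 0.052). On the genome, *Tuba1b* starts at 98931425 and ends at 98934565, *Tuba1a* runs from 98949841 to 98953551 and *Tuba1c* from 99029891 to 99038105.

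These 3 genes share much of their sequence. The coding sequences of *Tuba1a* and *Tuba1b* are 98.3% identical and their proteins differ at 2 residues. Of the 100-base windows of the transcript, 65.1% in *Tuba1a*, 69.5% in *Tuba1b* and 53.4% in *Tuba1c* occur in another annotated transcript. On the opposite strand, 32.9%, 33.9% and 22.5% also match an annotated transcript. Their separate levels are uncertain, since neither the treatment of reads that match several places nor the use of strand is stated. Relative to *Tuba1b*, *Tuba1a* had 29.2% to 31.8% as many reads in the WT line and 18.2% to 23.3% in the ΔTAM line. *Tuba1c* had 30.0% to 34.4% and 37.1% to 45.8%. Neither pair of ranges overlapped.

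Among the β-tubulin genes, *Tubb4b* (ENSMUSG00000036752.4), an isotype of most tissues that is also abundant in cilia, was the only one of the 4 without overlap. It lies on chromosome 2 from 25222160 to 25224702. The WT libraries had 15.6, 16.1, 16.9 and 15.2 RPKM, and the ΔTAM libraries had 20.1, 22.2, 21.9 and 20.9 RPKM. The ratio of the means was 1.33 and the log2 fold change was 0.41 (standard error 0.044). Of its transcript windows, 29.2% occur in other annotated genes, for the most part the pseudogenes *Tubb4b-ps1* and *Tubb4b-ps2*, which had between 0 and 3 reads in a library.

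*Tubb5* (ENSMUSG00000001525.10, chromosome 17, 35833921 to 35838306) encodes the main β-tubulin of dividing cells and shared no window with another gene. It had 67.9, 69.1, 71.2 and 65.4 RPKM in the WT line and 67.2, 74.7, 70.9 and 72.5 RPKM in the ΔTAM line. The ranges overlap, and the log2 fold change was 0.060 (standard error 0.039). *Tubb4b* had 13.3% to 13.8% as many reads as *Tubb5* in the WT line and 16.7% to 17.9% in the ΔTAM line.

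*Tubb2a* (ENSMUSG00000058672.7) and *Tubb2b* (ENSMUSG00000045136.6), isotypes abundant in neurons, are neighbours on chromosome 13, from 34074274 to 34078007 and from 34126748 to 34130466. *Tubb2b* had 14.8, 15.8, 15.6 and 14.2 RPKM against 14.3, 15.2, 15.0 and 14.9 RPKM, with full overlap and a log2 fold change of -0.022 (standard error 0.039). *Tubb2a* had 2.00, 2.23, 2.16 and 2.12 RPKM against 1.94, 2.04, 1.81 and 2.10 RPKM, and a log2 fold change of -0.11 (standard error 0.052). The *Tubb2a* ranges overlap as well. Their proteins differ at 2 residues, and 36.9% of the windows of *Tubb2a* and 27.8% of those of *Tubb2b* occur in another transcript, mostly each other.

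**Figure D2:**
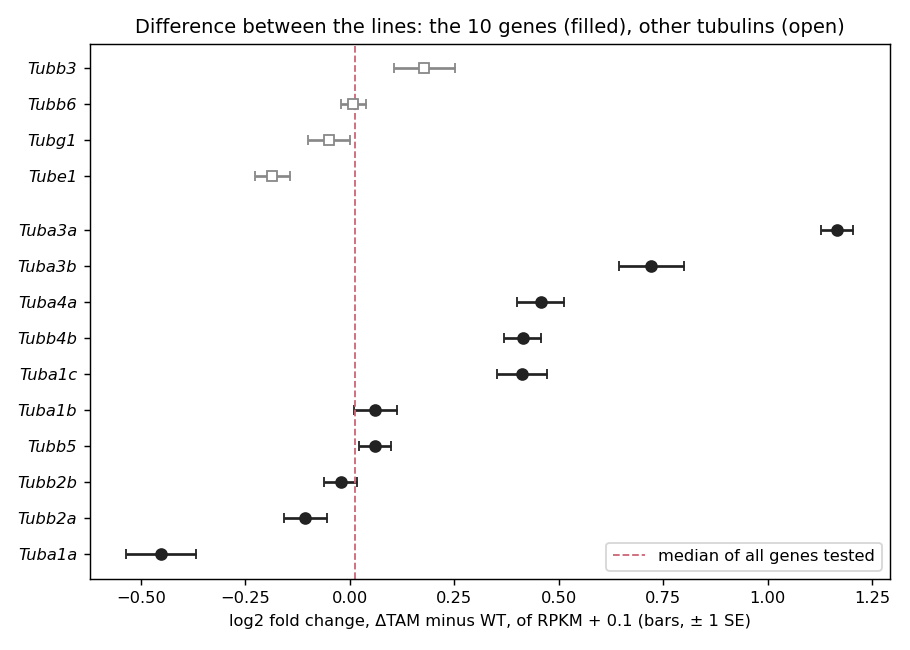
The log2 fold change of RPKM + 0.1 (x axis, ΔTAM minus WT, bars ± 1 SE, n = 4 libraries a line) for the 10 tubulin genes (filled circles) and the 4 other tubulin genes tested (open squares). *Tuba3a* (1.17) and *Tuba3b* (0.72) lie farthest to the right and *Tuba1a* (-0.45) farthest to the left, while the dashed line marks the median of all genes at 0.011.

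To compare the genes with each other, the reads recovered from RPKM were divided by the length of 1 reference transcript and set per 1 M reads on genes. How reads that match several places were counted is not stated. Of the 100-base windows, 69.5% in *Tuba1b* occur in another transcript, against 12.3% in *Tuba3a* and 0% in *Tubb5*. The order of the genes, their sums and their shares below are uncertain for that reason. On this scale *Tubb5* was highest in both lines, with a mean of 761 in the WT line and 791 in the ΔTAM line (reads per kilobase of transcript per 1 M reads on genes). In the WT line it was followed by *Tuba1b* (187), *Tubb2b* (173) and *Tubb4b* (171), whose libraries overlapped from each to the next. *Tuba3a* (92.1) and *Tuba4a* (79.5) came next, then *Tuba1a* (54.8) and *Tuba1c* (52.5), which overlapped each other, then *Tubb2a* (33.2) and *Tuba3b* (2.96).

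The order was different in the ΔTAM line. There *Tubb4b* (227), *Tuba3a* (211) and *Tuba1b* (195) followed *Tubb5*, and each overlapped the next. On this scale *Tuba3a* thus overlapped *Tuba1b*, whose level is uncertain because of its shared sequence. *Tubb2b* (170), *Tuba4a* (109), *Tuba1c* (70.6), *Tuba1a* (39.6), *Tubb2a* (30.6) and *Tuba3b* (6.25) came after them without overlap between neighbours. *Tuba1c* was above *Tuba1a* here.

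Summed over the 6 α-tubulin genes, the level was 479, 480, 483 and 433 in the WT libraries. It was 611, 659, 622 and 631 in the ΔTAM libraries. The means stood in a ratio of 1.35, and without *Tuba3a* in a ratio of 1.12. The 4 β-tubulin genes summed to 1123, 1153, 1184 and 1091 against 1162, 1266, 1216 and 1230, which overlap, with a ratio of 1.07. The α-to-β ratio was 0.397 to 0.427 in the WT line and 0.512 to 0.526 in the ΔTAM line. Reads shared between genes may be missing from these sums or counted more than once, which was not tested. RNA amounts of this kind do not measure the proteins, which assemble as pairs.

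*Tuba3a* made up 19.4% to 20.3% of the α-tubulin sum in the WT line and 32.2% to 34.2% in the ΔTAM line. The share of *Tuba1b* was 39.0% to 40.9% and 29.9% to 32.3%, and that of *Tuba1a* was 11.1% to 12.0% and 5.69% to 6.74%. *Tuba4a* and *Tuba1c* kept overlapping shares, with means of 17.0% and 17.3% for *Tuba4a* and of 11.2% in both lines for *Tuba1c*. Among the β-tubulin genes, the *Tubb4b* share was 14.8% to 15.2% and 18.1% to 19.1%. *Tubb5* held 66.5% to 67.3% and 64.5% to 65.4%.

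**Figure D3:**
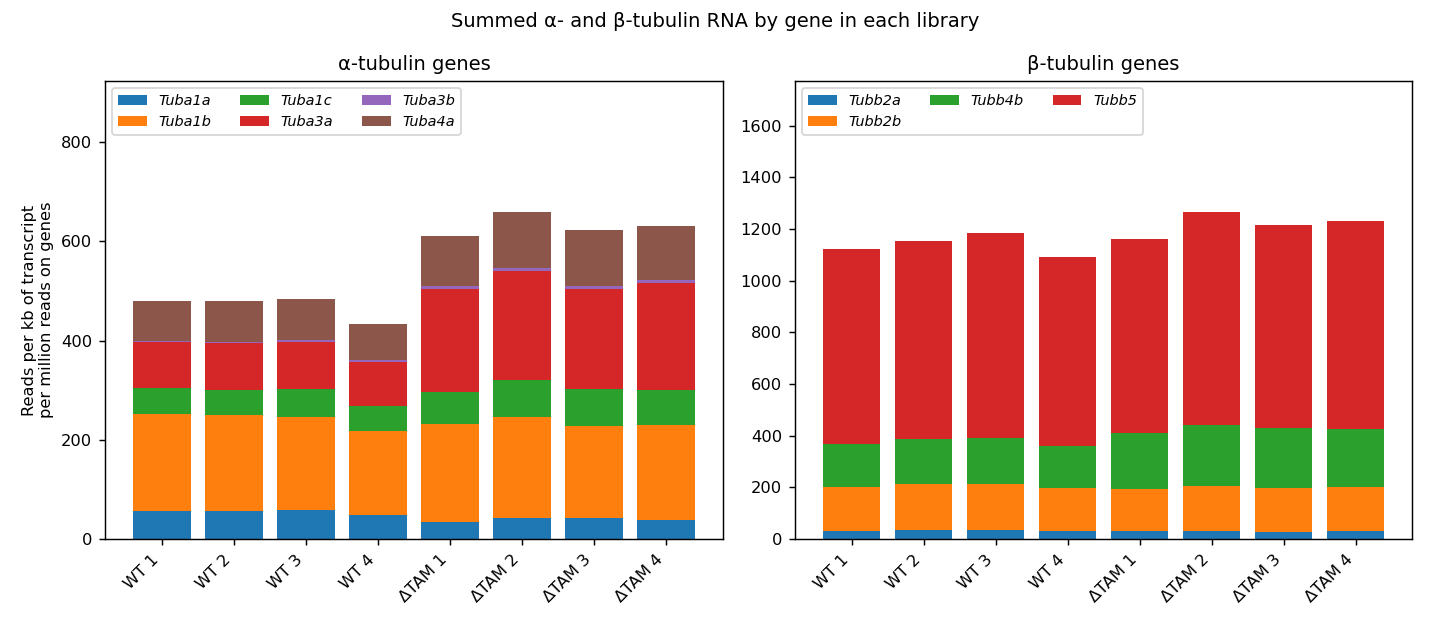
Reads per kilobase of transcript per 1 M reads on genes (y axis), stacked by gene for the 6 α-tubulin genes (left) and the 4 β-tubulin genes (right) in each of the 8 libraries. The α-tubulin stacks reach 433 to 483 in WT and 611 to 659 in ΔTAM, with most of the added height in *Tuba3a*, whereas the β-tubulin stacks overlap.

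Several of the 10 genes had their lowest value in the same library of a line. Replicate 4 was the lowest WT library for 8 of them and replicate 1 the lowest ΔTAM library for 6. The coefficient of variation was 3.45% to 8.47% in the WT line for 9 genes and 17.6% for *Tuba3b*, the gene with the fewest reads. It was 2.58% to 9.44% in the ΔTAM line. Likeness, for genes whose mean reached 1 RPKM, was the root-mean-square difference of log2(RPKM + 0.1), centred on the mean of each gene, over the 8 libraries, among 2147 other genes. The difference between the lines enters this measure. For a gene that differs between the lines it therefore mostly finds genes with a like difference.

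By this measure *Tuba3a* was most like *Gpx2*, a glutathione peroxidase gene (0.053), *D1Pas1*, a testis RNA helicase gene (0.089), and *2310043M15Rik* (0.12). *Tubb4b* was nearest to the histone gene *H3f3b* (0.022), *Ube2c* (0.028) and *Tuba1c* (0.035), and *Tuba1c* was nearest to *H3f3b* (0.032), *Tubb4b* (0.035) and *Ppib* (0.037). *Tuba4a* was also nearest to *Tubb4b* (0.039), followed by *Ufc1* (0.041) and *Erf* (0.043). *Tuba1a* had no close match, with *Atf5* (0.078), *Plin3* (0.078) and *Sox2* (0.086) as the nearest. The genes with overlapping lines had *Rpl13a*, *Fau* and *Wbp2* (*Tuba1b*), *Actr1b*, *Sgta* and *Ddost* (*Tubb2a*), *Rpl18*, *Ctsa* and *Ptbp1* (*Tubb2b*) and *Hdgf*, *Rps3a1* and *Pgam1* (*Tubb5*) as nearest, at 0.014 to 0.046.

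Of the 12 other tubulin entries, by symbol, 4 had a mean of at least 0.1 RPKM and were tested. *Tube1*, which encodes the centriolar ε-tubulin, had 0.245 to 0.261 RPKM in the WT line and 0.198 to 0.234 RPKM in the ΔTAM line, and fell (log2 fold change -0.19 with a standard error of 0.042, limma adjusted p = 0.0117). *Tubb3*, the neuronal β-tubulin gene, had 0.148 to 0.201 and 0.201 to 0.242 RPKM, from 78 to 149 reads, and its log2 fold change of 0.18 did not pass (adjusted p = 0.0969). *Tubg1*, the main γ-tubulin gene (log2 fold change -0.051, adjusted p = 0.475), and *Tubb6* (0.0080, adjusted p = 0.859) did not pass either. *Tuba8*, *Tubal3*, *Tubb1*, *Tubb4a*, *Tubd1*, *Tubg2* and the 2 pseudogenes had means under 0.1 RPKM and were not in the limma fit. Of the 4 tested, limma called 0 higher and 1 lower, beside 19.9% and 16.0% of all genes tested. Voom on recovered reads called 0 of the other tubulin genes higher and 2 lower, *Tube1* and *Tubg2*. In limma, 1 (*Tubb3*) was higher at an unadjusted p under 0.05.

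The genes that fold, modify, nucleate or bind tubulin, together with the actins, made 8 lists of 114 genes, of which 65 were tested. Of these, 16 were called higher (24.6%, beside 19.9% of all genes tested) and 8 lower (12.3%, beside 16.0%). Voom on recovered reads, which tests lower genes too, called 22 higher and 23 lower. Their median log2 fold change was 0.0082, beside 0.011 for all genes. The shares of 19.9% higher and 16.0% lower over all genes tested stand beside the count of each list below. All adjusted p below are from limma over the 9001 genes. The limma fold changes are of RPKM + 0.1, and the pseudocount holds them down for genes of low RPKM.

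Newly made tubulin is folded by the chaperonin TRiC after delivery by prefoldin. Of the 8 TRiC genes tested, 2 rose and 2 fell, beside 19.9% and 16.0% of all genes tested. *Cct4* fell by 0.24 on the log2 scale (adjusted p = 1.6e-04), *Cct3* rose by 0.18 (adjusted p = 0.0028) and *Tcp1* by 0.10 (adjusted p = 0.0194, and 0.0555 without ΔTAM replicate 3). *Cct8*, the other gene called lower (-0.089, adjusted p = 0.0300), was lost without WT replicate 1 or 3 and without ΔTAM replicate 1, 2 or 4. Of 6 prefoldin genes, *Vbp1* fell by 0.27 (adjusted p = 3.4e-04) and 5 did not pass. The folding cofactors assemble the dimer after TRiC. Of 5 tested, *Tbcb*, whose product acts on α-tubulin, rose by 0.37 (standard error 0.049, adjusted p = 0.0011) from 1.03 ± 0.0604 to 1.35 ± 0.0699 RPKM (SD, n = 4), and the other 4 did not pass.

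In the list for tubulin mRNA autoregulation, 4 of 10 genes tested rose and 0 fell (beside 19.9% and 16.0% of all genes tested, 0 lower at an unadjusted p under 0.05 in limma, 1 called lower by voom), with a median log2 fold change of 0.065. *Cnot6*, a deadenylase gene (0.32, adjusted p = 0.0014), *Cnot11* (0.27, adjusted p = 0.0021) and *Cnot3* (0.21, adjusted p = 7.2e-04) led it. They belong to the general CCR4-NOT complex, which degrades many mRNAs. *Ttc5*, the gene of the factor specific to tubulin, had means of 0.388 RPKM in both lines and was not called. *Scaper*, with a mean under 0.1 RPKM, was not in the limma fit, and with 204 to 251 reads a library in the WT line and 151 to 233 in the ΔTAM line it was the 1 gene that voom called lower (log2 fold change -0.25, standard error 0.098).

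Of the 8 tubulin-modifying enzyme genes tested, *Atat1*, the acetyltransferase of α-tubulin, fell by 0.32 (adjusted p = 0.0019) and *Sirt2*, which encodes a deacetylase, fell by 0.30 (adjusted p = 0.0024). *Ttl*, which restores the terminal tyrosine, rose by 0.16 (adjusted p = 0.0461), but in only 1 of the 8 fits that each left out a library did it still pass. In the γ-tubulin ring complex list, where the *Tubgcp* genes were counted, 9 genes were tested. Of these, *Mzt1* was called higher (0.17, adjusted p = 0.0280) and *Mzt2* lower (-0.19, adjusted p = 0.0210), beside 19.9% and 16.0% of all genes tested. *Mzt1* passed in 4 and *Mzt2* in 6 of those 8 fits. The pseudocount holds these fold changes down, most for genes of low RPKM. In voom on recovered reads they were -0.46 for *Atat1*, -0.46 for *Sirt2* and 0.28 for *Ttl*. There *Mzt1* had 0.19 and *Mzt2* -0.30.

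Of the 17 genes of microtubule-associated proteins tested, 6 rose and 2 fell, beside 19.9% and 16.0% of all genes tested. The 6 became 3 without WT replicate 2 or without ΔTAM replicate 3, and the 2 became 1 without WT replicate 3 or 4. A filter at a mean of 1 RPKM left 0 called because it drops all 6 and both lower genes from the test. Voom called 9 higher and 11 lower. *Fignl1*, a relative of the severing enzyme fidgetin that is also known from DNA repair, rose from 0.639 ± 0.0315 to 1.11 ± 0.0280 RPKM (SD, n = 4), a log2 fold change of 0.71 (adjusted p = 2.2e-05). *Map1b* fell by 0.29 (adjusted p = 0.0061), from a mean of 0.123 to 0.0828 RPKM. The pseudocount holds this value down, and in voom on recovered reads it was -0.58. *Stmn2*, which encodes a protein that binds free dimers, fell by 0.26 (adjusted p = 0.0111). Of the actin genes, *Actb* rose by 0.28 (standard error 0.038, adjusted p = 0.0011) and *Actg1* did not pass.

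**Figure D4:**
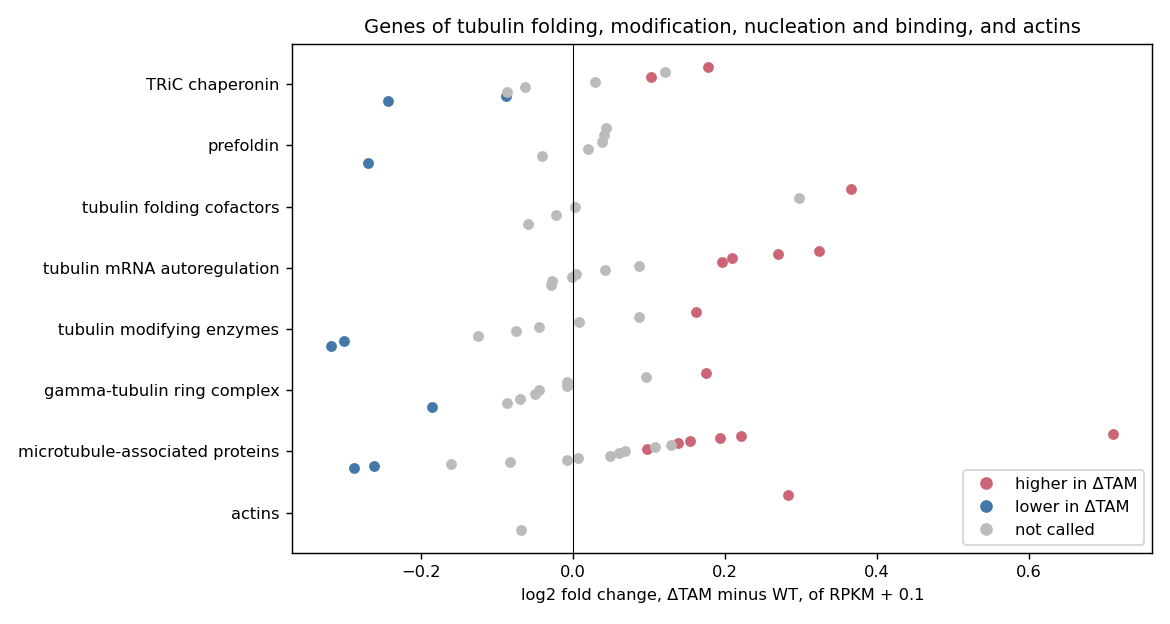
The log2 fold change of RPKM + 0.1 (x axis, ΔTAM minus WT) of every gene tested in the 8 lists, with genes called higher in red, called lower in blue and not called in grey. All genes but *Fignl1* (0.71) lie between -0.32 and 0.37.

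The genes beside the tubulin genes were read in the same fit, and whether neighbours share a change was not tested. Within 100 kb on either side, 39 genes that averaged at least 0.1 RPKM and at least 10 reads were tested. Of these, 10 were called higher, beside 19.9% of all genes tested, and 10 lower, beside 16.0%. Near *Tuba3a*, *Tnfrsf1a* rose by 0.28 (adjusted p = 0.0036), *Ncapd2* fell by 0.088 (adjusted p = 0.0176, and 0.0506 without ΔTAM replicate 3) and *Ltbr* (-0.15, adjusted p = 0.137) and *Mrpl51* (0.11, adjusted p = 0.127) were not called. No gene tested lay within 100 kb of *Tuba3b*. Near the *Tuba1* genes, *Kmt2d* (0.24, adjusted p = 0.0034), *Spats2* (0.21, adjusted p = 0.0032) and *Troap* (0.17, adjusted p = 0.0471) were higher and none was lower. Near *Tuba4a*, *Retreg2* and *Cnppd1* were lower and *Dnpep* higher. The genes beside *Tubb4b* were called in both directions. *Nelfb* (-0.28, adjusted p = 0.0023), *Ssna1* (-0.26, adjusted p = 0.0464) and *Anapc2* (-0.095, adjusted p = 0.0393) were lower and *Ndor1* higher (0.26, adjusted p = 0.0013). The stretch around *Tubb5*, which overlapped between the lines, was also mixed, with *Flot1* (-0.34, adjusted p = 0.0058), *Mdc1* (-0.17, adjusted p = 8.7e-04), *Nrm* (-0.49, adjusted p = 1.1e-04) and *Atat1* lower and *Ppp1r18* (0.32, adjusted p = 0.0047), *Dhx16* (0.11, adjusted p = 0.0293), *Mrps18b* (0.29, adjusted p = 0.0135) and *Ppp1r10* (0.24, adjusted p = 0.0052) higher. Leaving out WT replicate 3 or ΔTAM replicate 2, 3 or 4 ended the call of *Dhx16*. Of the 8 fits that each left out a library, *Troap* and *Ssna1* passed in 2 and *Anapc2* in 1.

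**Figure D5:**
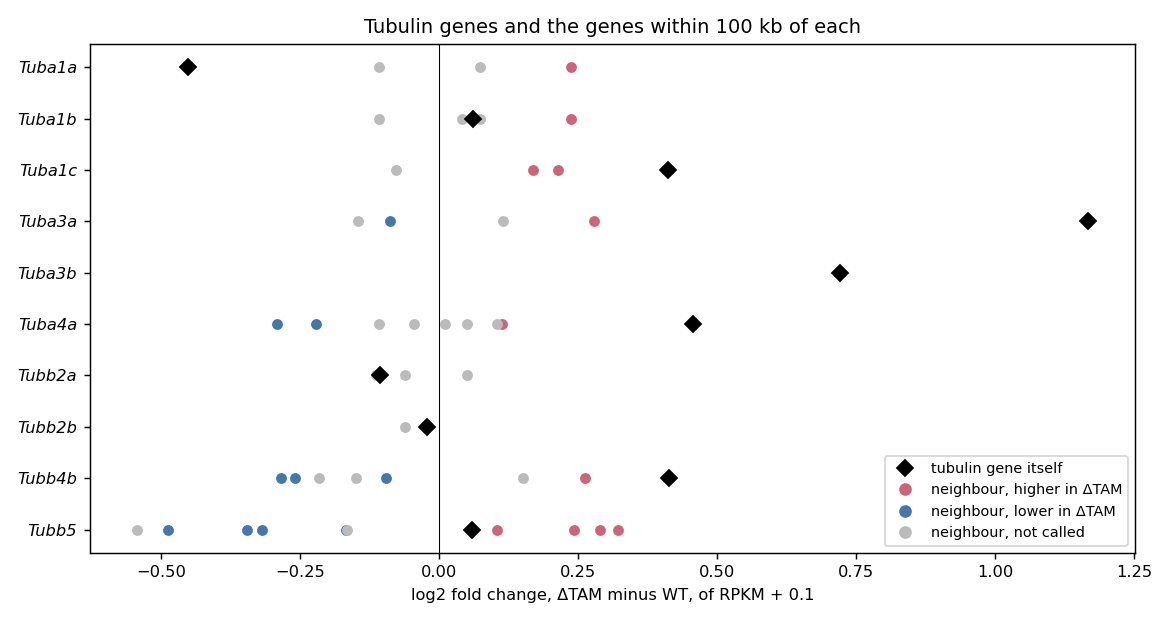
The log2 fold change of RPKM + 0.1 (x axis, ΔTAM minus WT) of each tubulin gene (black diamond) and of the non-tubulin genes within 100 kb of it (circles, red where called higher, blue where called lower, grey where not called). *Tuba3a*, *Tuba4a*, *Tuba1c* and *Tubb4b* lie to the right of all their neighbours, and *Tuba1a* lies to the left of all of its own. *Tuba3b* has no tested neighbour.

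Marker genes were read beside the tubulins, because several isotypes are typical of other cells. Their summed RPKM weights genes of short genomic span more and serves only to set libraries side by side. The 7 ESC markers were all tested and summed to 84.7 to 87.3 RPKM in the WT line and 72.5 to 78.2 RPKM in the ΔTAM line. *Sox2* fell by 0.42 (adjusted p = 6.9e-05), *Klf4* by 0.39 (adjusted p = 4.5e-05) and *Esrrb* by 0.20 (adjusted p = 0.0018), while *Pou5f1*, *Nanog*, *Zfp42* and *Tfcp2l1* did not pass. Over all genes tested, 16.0% were called lower. The 16 neuronal markers summed to 1.29 to 1.52 and 1.15 to 1.51 RPKM, 13 had a mean under 0.1 RPKM and *Dcx* was at 0 in every library. Of the 3 tested, *Stmn2* was lower (above), with 1377 to 1468 reads a library in the WT line and 880 to 1368 in the ΔTAM line. *Nefl* (135 to 169 and 136 to 225 reads, log2 fold change 0.27) and *Nefm* (205 to 240 and 184 to 279 reads, 0.048) had positive values that did not pass, and voom called 2 of the 16 higher and 2 lower. Some neuronal marker RNA was thus present beside *Tuba1a*, *Tubb2a* and *Tubb2b*, and its part in their values was not tested. Of the 10 markers of other differentiating cells, 7 had a mean under 0.1 RPKM, *Fgf5* was at 0, and *Nes* fell by 0.75 (adjusted p = 2.9e-04), while *T* (-0.16) and *Cdx2* (0.28) did not pass. Voom called 1 of the 10 higher and 2 lower. The sums were 1.46 to 1.61 and 1.04 to 1.38 RPKM.

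The 8 testis germ cell markers summed to 0.938 to 1.11 RPKM in the WT line and 2.04 to 2.25 RPKM in the ΔTAM line. Like *Tuba3a*, the sum was higher in the ΔTAM line, and it rested on 2 genes. *Stra8* rose from 0.114 ± 0.0115 to 0.681 ± 0.0510 RPKM (SD, n = 4, log2 fold change 1.87, adjusted p = 3.0e-06) and *Dazl* from 0.824 ± 0.0621 to 1.35 ± 0.0367 RPKM (0.66, adjusted p = 9.5e-05). The other 6, *Ddx4*, *Sycp3*, *Prm1*, *Prm2*, *Tnp1* and *Acrv1*, had means under 0.1 RPKM and were not tested by limma on RPKM. Of these, *Sycp3* went the other way, with 42 to 61 reads a library in the WT line and 18 to 36 in the ΔTAM line, and voom on recovered reads called it lower (log2 fold change -0.89, standard error 0.20).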

How the data were processed

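Poly(A) RNA from 4 ESC + F/H-BAZ2Ar_WT_ and 4 ESC + F/H-BAZ2Ar_ΔTAM_ libraries was sequenced with a stranded kit. The authors mapped reads to mm10 with STAR, took the coverage of exons by a pipeline of their own and deposited it as RPKM, 1 column a library. Annotation release, strand use and the treatment of multi-mapping reads are not given in the sources used here. The deposited RPKM were whole multiples (100% of values, tolerance 0.1) of a step per library once multiplied by genomic span, which gave reads per gene. Intervals cover library spread only. Of 51288 entries, 385 repeated ones were set aside.

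For genes that averaged at least 0.1 RPKM, log2(RPKM + 0.1) was fitted with limma 3.58.1 in R 4.3.3 (lmFit, eBayes with trend, no covariates) and adjusted by Benjamini-Hochberg over 9001 genes. The code was tested on simulated data. The members and lists were chosen with earlier results of these data known. Named were the 10 genes, other tubulins tested, the 3 largest called changes of each list, *Baz2a*, the 3 most alike genes of each member, and neighbours, which with *Stk16*, *Ttc5*, *Cct8*, *Sycp3*, *Scaper*, *Nefl*, *Nefm*, *T*, *Cdx2* and genes that did not pass were picked after their values were seen. Alternatives were other pseudocounts, filters and scalings, eBayes without trend, voom on recovered reads, a replicate block and each library left out.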

Additional observations from a re-analysis of the deposited data

Results flagged for a closer look

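*Tuba1a* in ESC + F/H-BAZ2Ar_WT_ replicate 4 had 3.46 RPKM, far from the other 3 libraries of its line, of which the nearest had 4.08 RPKM. The gap took up 0.839 of the range of the line, above the 95% critical value of Dixon’s test for 4 values. Chance alone sets apart about 1 group in 20, and 28 groups of 4 libraries were looked at (14 tubulin genes in 2 lines). Without this library the log2 fold change of *Tuba1a* was -0.51, against -0.45 with it. The same library was the lowest of its line for 8 of the 10 tubulin genes.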

How the results depend on the processing

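The number of the 10 tubulin genes with a positive fold change was 7 and stayed at 7 in each fit without a library. It was 6 with a filter at a mean of 1 RPKM, which drops *Tuba3b*, and 6 with quantile normalization, which took *Tuba1b* to -0.029. *Tuba3a* ran from 0.96 (pseudocount 1) to 1.20 (voom) and *Tuba3b*, the gene that depends most on the pseudocount, from 0.18 to 1.08. Over all genes, a filter at 1 RPKM called 590 higher and 399 lower, since it tests fewer genes (2148), and voom on recovered reads (12658 genes) called 2774 higher and 2779 lower, a more even split than 1790 and 1436. Leaving out a library gave 1440 to 1713 higher and 1138 to 1388 lower. Of the other tubulin genes, the filter at 1 RPKM called 0 lower, since it drops *Tube1* from the test, and voom called 2, *Tube1* and *Tubg2*. In the 8 lists, the filter called 8 higher and 2 lower, voom called 22 higher and 23 lower, and leaving out a library gave 10 to 16 higher (10 without ΔTAM replicate 3) and 6 to 8 lower. *Tubb6* turned to -0.011 with quantile normalization and ran from -0.0055 to 0.021 without a library, negative without WT replicate 4 and without ΔTAM replicate 2 (-0.0018) or 4 (-0.0054). Where no construction is named, the cause was not tested.

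With the replicate number as a replicate block, *Tubb3* passed (0.18, adjusted p = 0.0359) as 1 other tubulin gene called higher, and 12 genes of the lists were called higher and 6 lower. Of the genes named, *Ttl*, *Mzt1*, *Mzt2*, *Cct8*, *Anapc2*, *Dhx16* and *Mrps18b* (adjusted p = 0.0612) did not pass with the block. Libraries with the same number correlated at 0.024 to 0.062 in their deviations from the line means. In 3 of 4 pairs both correlated best with their own number. These low correlations do not settle whether libraries of the same number were handled together, so the main fit, without a block, and the block are both given.

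Depth limits *Tuba3b*, with 32 to 99 reads a library, and the tubulin genes under 0.1 RPKM.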
